A study of Mus musculus with 10 samples.

Results

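The genes described here encode respiratory complex I, the NADH dehydrogenase of the inner mitochondrial membrane, together with the factors that assemble it. Every gene in the deposited heart count table whose symbol begins with Nduf was taken, which gave 46 genes of 24537. They comprise 7 core subunits, 10 accessory subunits of the matrix arm, 9 accessory subunits of the proximal membrane arm, 10 of the distal membrane arm, 8 assembly factors, and Ndufa4 with its relative Ndufa4l2, which carry the family name although Ndufa4 is now assigned to complex IV. Gene expression was measured by RNA sequencing of heart tissue from 10 mice aged 6 weeks, 5 control and 5 iSOD2. Control mice were Rosa26-rtTA2+/-;TRE-SOD2-shRNA-/- and iSOD2 mice Rosa26-rtTA2+/-;TRE-SOD2-shRNA+/-, so both carried 1 copy of a doxycycline-dependent transactivator expressed from the ubiquitous Rosa26 promoter, and iSOD2 mice also carried 1 copy of a hairpin against Sod2, which encodes the matrix superoxide dismutase. All dams were C57BL/6J and received doxycycline in their chow during gestation only, so every mouse had been exposed in utero and none after birth. There were 3 male and 2 female controls and 2 male and 3 female iSOD2 mice. Litter A gave 2 mice of each genotype and litter B 3.

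Complex I takes electrons from NADH in its matrix arm, passes them over a flavin and a chain of iron-sulphur clusters to ubiquinone, and couples this to proton pumping by its membrane arm. The core subunits that carry out catalysis are shared with bacteria, and the accessory subunits surround and stabilise them. The membrane-embedded core subunits are encoded by mitochondrial DNA, and no row of the table lay on the mitochondrial chromosome, so the mitochondrial Nd genes were not analysed here. Assembly factors bind intermediates of the complex and are not part of the finished enzyme. Heart muscle is among the tissues richest in complex I.

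The 46 genes lay on 17 chromosomes, with Ndufa1 and Ndufb11 on the X chromosome. Their transcripts were short, with 343 to 3627 bp of exon and a median of 746.5 bp, against a median of 3210 bp over the 9479 genes that received an adjusted p in the comparison of genotypes. Levels between genes were compared as normalised counts per kb of exon, the mean over the 10 hearts. The 36 complex I subunits had a median level of 4518 per kb (range 1324 to 15190), and the 8 assembly factors a median of 235.7 per kb (range 113.8 to 475), so every assembly factor lay below every subunit. Ndufb9 had the highest level, 15190 ± 1056 per kb, and Ndufaf5, which modifies the core subunit Ndufs7 during assembly, the lowest, 113.8 ± 11.04 per kb (SD over the 10 hearts). Ndufb9, Ndufb8 (14800 ± 783 per kb) and Ndufa4 (14720 ± 1802 per kb) differed by less than their spread. The core subunit Ndufs3 had 3764 per kb. The subunit genes thus differed from one another in level by far more than any of them varied between hearts, as the plot of levels per kb shows. Ndufa4l2, a hypoxia-inducible relative of Ndufa4, had 335.9 ± 46.5 per kb, within the range of the assembly factors. Within a genotype, the coefficient of variation between hearts ran from 1.37% for Ndufs5 to 20.3% for Ndufa4l2 in controls and from 1.31% for Ndufa12 to 11.4% for Ndufaf6 in iSOD2 hearts.

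**Figure D1:**
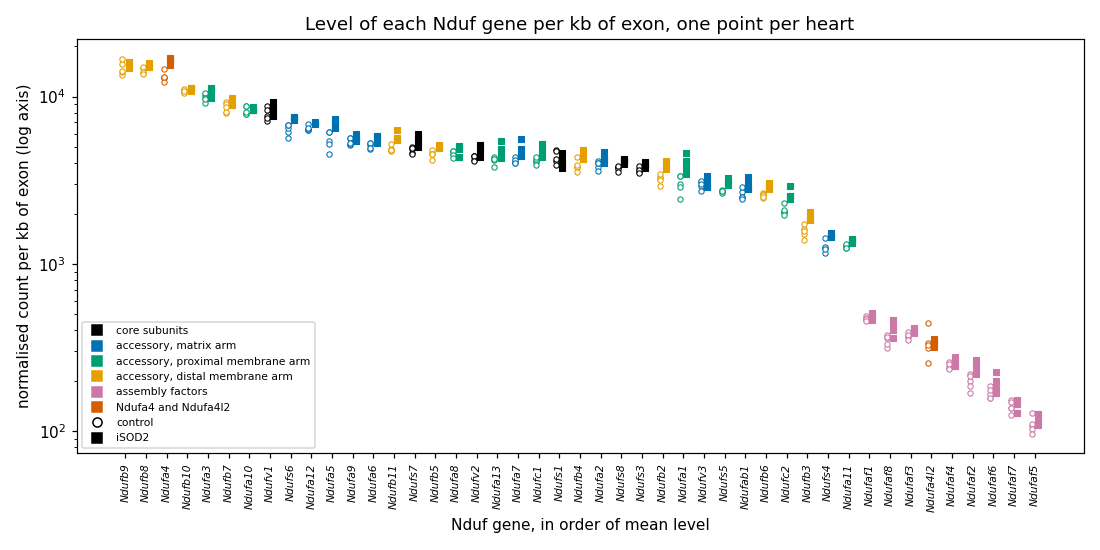
Normalised counts per kb of exon (log axis) for 45 Nduf genes in order of their mean, 1 point per heart, with open circles for the 5 control and filled squares for the 5 iSOD2 hearts and colour for the role. The 8 assembly factors and Ndufa4l2 sit between 113.8 and 475 per kb on average, below all 36 subunits, whose means run from 1324 to 15190 per kb.

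Counts over genes ran from 16448090.5 to 24263085.5 per library. Sod2 itself ranged from 9562 to 11020 normalised counts in controls and from 10120 to 11310 in iSOD2 hearts, which overlapped. Ventricular cardiomyocyte markers (8 of 8 in the table) were even across the 10 hearts in their mean log2 level, 17.0 to 17.2. Of the 8, 0 passed both thresholds in the comparison of genotypes. Ryr2 was lower in iSOD2 hearts (log2 fold change -0.16, DESeq2 adjusted p 0.0427) and Tnnt2 higher (0.18, adjusted p 0.0748). Atrial markers (4 of 4) were at 8.57 in iSOD2 10 and at 3.59 to 5.31 in the other hearts. Hepatocyte markers (10 of 10, none at 0) were at 3.68 to 8.95 in controls and 8.08 to 9.80 in iSOD2 hearts, and 1 of the 10, Apoa2, passed both thresholds in the comparison of genotypes. A fit with the hepatocyte level as a covariate called 8 Nduf genes, against 6 without it, and the part of the atrial markers was not tested.

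The comparison of iSOD2 with control hearts asked whether complex I expression differed at 6 weeks, after the knockdown had ended. Differences were small and nearly all in 1 direction, since 45 of 46 Nduf genes had a positive log2 fold change (29 of 46 once trends with exon length and GC content were removed, as described further on). The median was 0.15, and Ndufs1 alone was negative, at -0.06 (SE 0.07). Of the 45 genes with an adjusted p, 44 were positive, against a background of 47.3% of all 9479 genes. Genes were called at a DESeq2 adjusted p of at most 0.05 and an absolute log2 fold change above 0.25. By that rule 6 of 45 Nduf genes rose, Ndufa1, Ndufa5, Ndufc2, Ndufa4, Ndufb2 and Ndufb3, against 1.27% of all genes, and 0 fell, against 1.7%. None of the 6 was called by edgeR's quasi-likelihood test, which called 0 of all genes, or after the trends with exon length and GC content were removed (0 Nduf genes, against 0.422% of all genes called higher). Without the fold threshold 21 of 45 rose, against 3.04%, and 0 fell, against 3.05%. All 5 iSOD2 hearts lay above all 5 controls for 16 of the 46 genes, against 3.18% of all genes, and below them for 0, against 2.53%. At an unadjusted DESeq2 p under 0.05, 30 of 46 were higher, against 7.29% of the 17721 genes with an unadjusted p, and 0 were lower, against 5.93%. Among only the 9479 genes with an adjusted p the shares were larger, with 972 higher and 927 lower. In bulk heart tissue, a change in the share of a cell type and a change of RNA per cell cannot be told apart.

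The hearts of the 2 genotypes also stood apart in the summed level of the 46 genes. The family took 0.841% ± 0.0253 of the counts over genes in a control library (range 0.806% to 0.868%). In an iSOD2 library it took 0.933% ± 0.0104 (range 0.924% to 0.950%, SD, n = 5 each), with no overlap. On a log2 scale, the median deviation of the Nduf genes from their own means over the 10 hearts was -0.08 ± 0.04 in controls and 0.08 ± 0.03 in iSOD2 hearts. The number of the 46 genes above their own mean was 11, 17, 3, 10 and 1 in controls 1, 2, 3, 4 and 6, and 41, 41, 35, 41 and 32 in iSOD2 5, 7, 8, 9 and 10. The lowest hearts were therefore controls 3 and 6, and the least raised iSOD2 hearts were 8 and 10, as the map of the genes by heart shows.

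**Figure D2:**
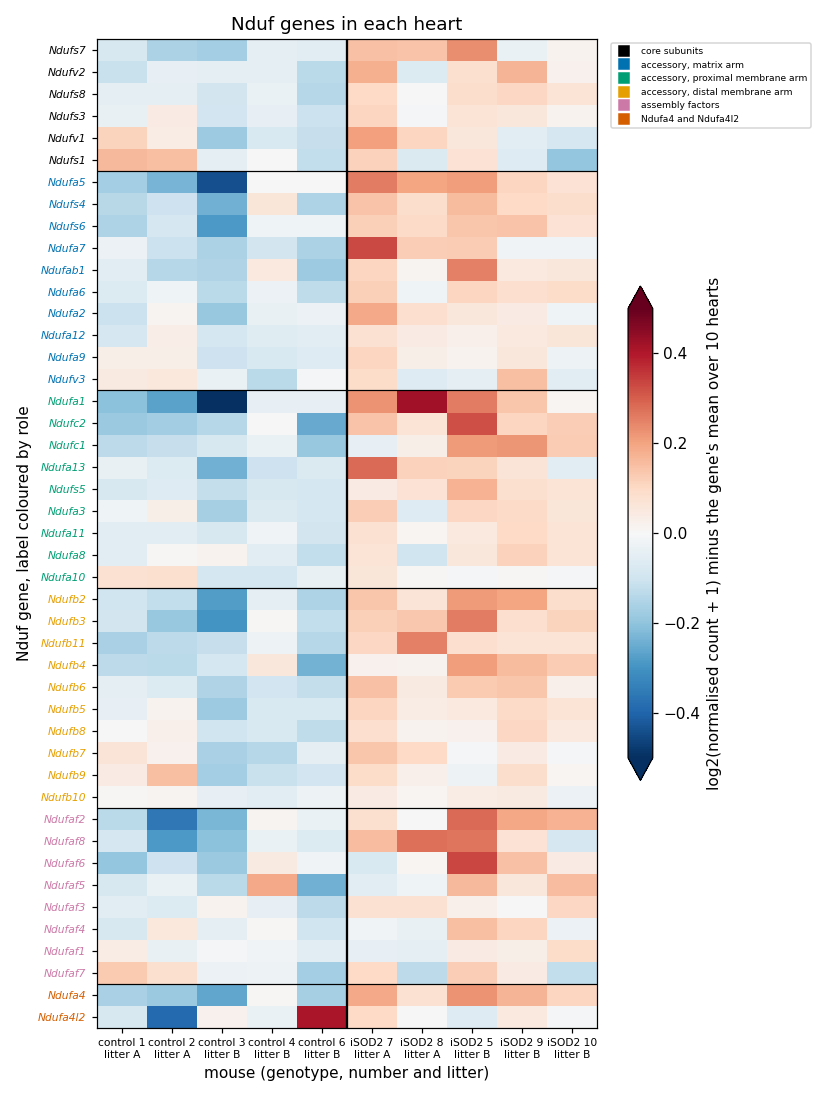
Each cell is the log2 normalised count of an Nduf gene (45 rows, grouped and coloured by role) in a heart (columns, by genotype, then litter) minus the mean of that gene over the 10 hearts, from blue (lower) to red (higher). Most cells are blue in the 5 control columns and red in the 5 iSOD2 columns, and of all 46 genes 1 to 17 were above their mean in a control heart and 32 to 41 in an iSOD2 heart.

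Among the accessory subunits of the proximal membrane arm, 6 of 9 rose at an adjusted p of at most 0.05, against 3.04% of all genes. Of the 9, 2 were called, against 1.27%. The shares were larger among short genes, since 33% of all genes of up to 500 bp rose at that adjusted p. Of those of 500 to 1000 bp, 20.2% did. With trends with exon length and GC content removed, as described further on, 3 of the 9 turned negative. Ndufa1 (NM_019443, chromosome X, 37187589 to 37191238, minus strand, 488 bp of exon), a small membrane subunit required for assembly of the complex, had 1456, 1397, 1191, 1635 and 1632 normalised counts in controls 1, 2, 3, 4 and 6, and 2005, 1966, 2251, 1851 and 1693 in iSOD2 5, 7, 8, 9 and 10. No iSOD2 heart was as low as any control, with control 3 the lowest heart and iSOD2 8 the highest. The difference was the largest of the family, a log2 fold change of 0.42 with SE 0.10 (DESeq2 adjusted p 0.00163), or 33.5%. Ndufc2 (NM_024220, chromosome 7, 97400003 to 97407800, plus strand, 676 bp of exon), a subunit that pairs with Ndufc1 at the base of the membrane arm, had 1378, 1389, 1419, 1567 and 1317 in those controls and 1961, 1730, 1644, 1689 and 1711 in the iSOD2 hearts. Again the groups did not overlap, and iSOD2 5 stood above the rest. Its log2 fold change was 0.30 (SE 0.07, adjusted p 6.6e-04).

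Ndufc1, Ndufa13, Ndufs5 and Ndufa11 passed the adjusted p at log2 fold changes of 0.22, 0.21, 0.17 and 0.12, under the fold threshold. Ndufa13 is also known as GRIM-19, and Ndufa11 is a membrane subunit. The table places a pseudogene row, BC002163, over the Ndufs5 span on the opposite strand, with a mean count of 1865.1 against 1486.4 for Ndufs5. No strand option was recorded for the counting, so the value of Ndufs5 is uncertain. The other 3 genes of this arm, Ndufa3, Ndufa8 and Ndufa10, had log2 fold changes of 0.13, 0.08 and 0.02 and did not pass.

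Of the distal membrane arm 6 of 10 rose at an adjusted p of at most 0.05, against 3.04% of all genes, and 2 were called, against 1.27%. These 10 genes had 449 to 991 bp of exon, and 4 of them turned negative with trends with exon length and GC content removed. Ndufb2 (NM_026612, chromosome 6, 39592583 to 39599471, plus strand, 449 bp of exon) had 1489, 1463, 1314, 1545 and 1431 normalised counts in controls 1, 2, 3, 4 and 6, and 1849, 1754, 1667, 1826 and 1694 in iSOD2 5, 7, 8, 9 and 10. Each iSOD2 heart exceeded each control, for a log2 fold change of 0.28 with SE 0.06 (adjusted p 2.8e-04). Ndufb3 (NM_025597, chromosome 1, 58586397 to 58595964, plus strand, 745 bp of exon) had 1201, 1122, 1039, 1286 and 1176 in controls and 1529, 1390, 1406, 1356 and 1382 in iSOD2 hearts. Here too the groups were apart, at a log2 fold change of 0.28 with SE 0.06 (adjusted p 0.00188). Both are small single-span subunits without a known catalytic role. Ndufb11, the X-linked subunit of this arm, was nearest below the fold threshold at 0.23 (SE 0.05, adjusted p 6.6e-04), followed by Ndufb4 (0.21), Ndufb6 (0.19) and Ndufb5 (0.14).

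Ndufb8 and Ndufb9, the most abundant per kb, were not called. The protein of Ndufb8 was among those probed by immunoblot in the study. Its gene had 9367, 9542, 8753, 8883 and 8594 normalised counts in controls and 9505, 9948, 9497, 10070 and 9697 in iSOD2 hearts. The groups overlapped, since control 2 lay above iSOD2 5 and 8, and the log2 fold change was 0.11 (SE 0.04, adjusted p 0.0940). Ndufb9 had 10050, 10850, 8688, 9044 and 9152 in controls and 9596, 10410, 9963, 10380 and 9848 in iSOD2 hearts. Control 2 was its highest heart, and the log2 fold change was 0.07 (SE 0.06, adjusted p 0.568). Ndufb7 (0.10) and Ndufb10 (0.04) did not pass either.

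The matrix arm accessory subunits were similar in count, with 6 of 10 higher at an adjusted p of at most 0.05, against 3.04% of all genes. Of the 10, 1 was called, against 1.27%, and 5 turned negative with trends with exon length and GC content removed. Ndufa5 (NM_026614, chromosome 6, 24518666 to 24527687, minus strand, 542 bp of exon), which lies on the quinone-binding part of this arm, had 2950, 2830, 2446, 3326 and 3318 normalised counts in controls 1, 2, 3, 4 and 6, and 3839, 3964, 3811, 3575 and 3493 in iSOD2 5, 7, 8, 9 and 10. The groups did not overlap, although controls 4 and 6 came within reach of iSOD2 10. The log2 fold change was 0.33 (SE 0.08, adjusted p 0.00402). Ndufs4 (0.23, adjusted p 0.00504) and Ndufs6 (0.22, adjusted p 0.00410), accessory subunits close to the NADH-oxidising end, were next, followed by Ndufa7 (0.22), Ndufab1 (0.19) and Ndufa6 (0.15). Ndufab1 is the mitochondrial acyl carrier protein. Ndufa2 (0.14), Ndufa12 (0.10), Ndufa9 (0.08) and Ndufv3 (0.03) did not pass.

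The 7 core subunits had a median log2 fold change of 0.14 and 0 were called, with 5 higher at an unadjusted p under 0.05 by DESeq2, against 7.29% of all genes, and 5 by edgeR, against 8.56%. Ndufs7, which carries the last iron-sulphur cluster before ubiquinone, rose from 3572 ± 144 to 4117 ± 302 normalised counts (SD, n = 5 each), which is 0.20 in log2 with SE 0.06 (adjusted p 0.0147). Ndufs8, which holds a pair of iron-sulphur clusters, rose from 3788 ± 115 to 4189 ± 118 (0.14, SE 0.04, adjusted p 0.00958). Both had every iSOD2 heart above every control. Ndufv2, another iron-sulphur subunit, had 6585 ± 201 and 7332 ± 519 and did not pass (0.16, SE 0.05, adjusted p 0.0622). Ndufs3 had 3388 ± 139 and 3621 ± 113 (0.10, adjusted p 0.178).

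Ndufv1 and Ndufs1, which belong to the NADH-oxidising module, showed the least difference among the core subunits. Ndufv2, the other core subunit of that module, was at 0.16. Ndufv1, which binds NADH and the flavin, had 12560 ± 1040 and 13360 ± 1109 (0.09, SE 0.07, adjusted p 0.514). Ndufs1, the largest core subunit, had 12650 ± 1096 and 12160 ± 1036 (adjusted p 0.720), so the difference was smaller than the spread between hearts in either group. Ino80dos overlaps 14704 bp of the Ndufs1 span on the opposite strand, with a mean count of 1070.6 against 12532.8.

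The 8 assembly factors were scarcer and noisier, with a median log2 fold change of 0.11. None of the 7 with an adjusted p passed, and 2 of 8 were higher at an unadjusted p under 0.05 by DESeq2, against 7.29% of all genes, and 2 by edgeR, against 8.56%. Ndufaf2 went from 133.1 ± 13.6 to 163.2 ± 12.2 normalised counts (SD, n = 5 each), which is 0.29 in log2 (SE 0.11) and received no adjusted p because of its low count. Ndufaf8, the partner of Ndufaf5, had 171.4 ± 12.4 and 207.6 ± 21.1 (0.27, SE 0.11, adjusted p 0.1002).

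Ndufaf6 had 181.1 ± 13.2 and 206.2 ± 23.5 (0.19, adjusted p 0.321), and Ndufaf5 297.1 ± 33.9 and 321.8 ± 22.4 (0.12, adjusted p 0.530). Ndufaf3 and Ndufaf4, which act together early in assembly, had 393.2 ± 14.6 against 424.8 ± 12.7 (0.11) and 890.0 ± 39.0 against 934.4 ± 57.5 (0.07). Ndufaf1, of the complex that builds the membrane arm, had 678.1 ± 16.6 and 693.8 ± 27.8 (0.03), and Ndufaf7, a methyltransferase, ranged from 286.3 to 353.6 in controls and from 294.5 to 351.3 in iSOD2 hearts (0.00). Of 11 further complex I assembly and associated genes without the Nduf name, 10 had an adjusted p. Their median log2 fold change was 0.05 and 0 were called, with 3 of 11 higher at an unadjusted p under 0.05 by DESeq2 and 3 by edgeR, against the same 7.29% and 8.56%. The 5 with the largest fold changes were Tmem261 (0.21), Lyrm2 (0.17), Tmem70 (0.16), Timmdc1 (0.13) and Foxred1 (0.07).

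Ndufa4 (NM_010886, chromosome 6, 11900373 to 11907446, minus strand, 486 bp of exon) had the lowest adjusted p of the family. It had 6348, 6253, 5928, 7141 and 6340 normalised counts in controls 1, 2, 3, 4 and 6, and 8294, 8096, 7501, 8005 and 7650 in iSOD2 5, 7, 8, 9 and 10. The groups did not overlap, and control 4 was the highest control. The log2 fold change was 0.30 (SE 0.06, adjusted p 4.7e-05). Ndufa4l2 had 302.1, 243.5, 323.5, 312.1 and 424.0 in controls and 304.8, 341.9, 319.2, 329.7 and 316.7 in iSOD2 hearts. Controls 2 and 6 were the lowest and the highest of all 10 hearts, and the log2 fold change was 0.00 (SE 0.12, adjusted p 0.991).

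**Figure D3:**
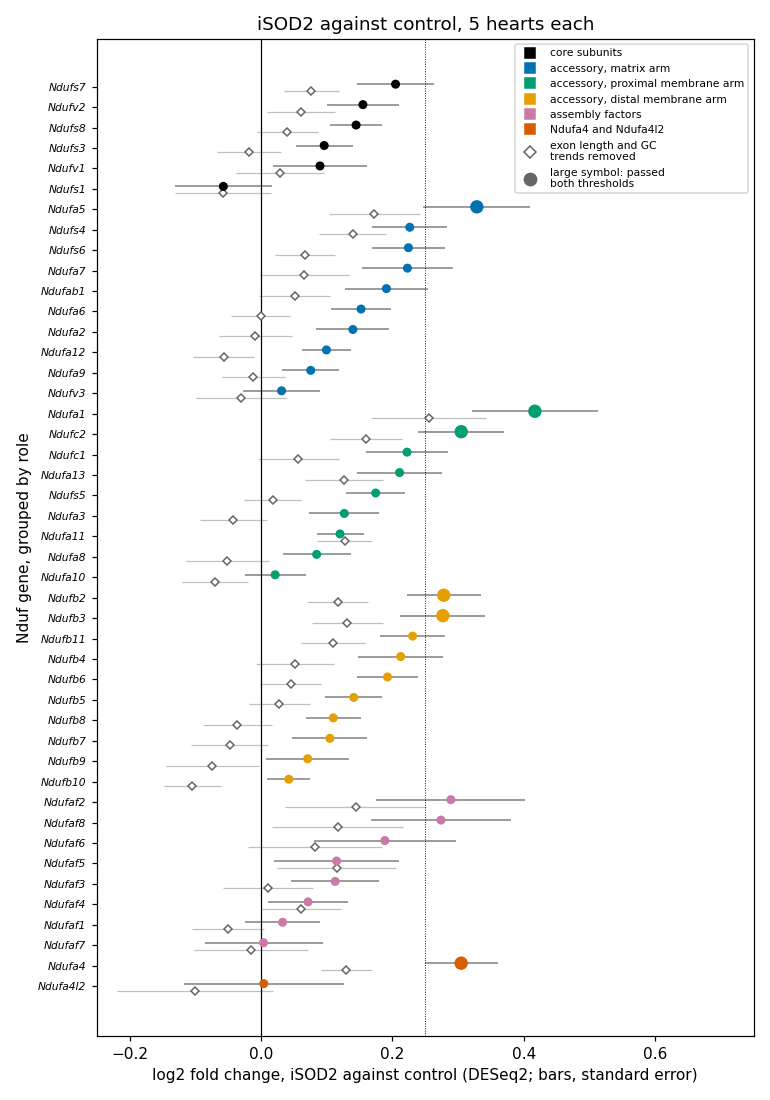
Points are DESeq2 log2 fold changes of iSOD2 against control for 45 Nduf genes, with bars of 1 standard error, colour for the role and large symbols for the 6 called genes; the dotted line is the fold threshold of 0.25. Open diamonds are the values after trends with exon length and GC content were removed, which lie further left for most genes, at a median over all 46 genes of 0.05 against 0.15.

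The other nuclear-encoded complexes of oxidative phosphorylation gave a yardstick. Complexes II to V together had a median log2 fold change of 0.16 over 44 genes, against the median of 0.15 for the 46 Nduf genes. Of the 44, 11 were called higher, against 1.27% of all genes, and 0 lower, against 1.7%. By complex, 0 of 4 genes of complex II were called (with 3 higher at an unadjusted p under 0.05 by DESeq2, against 7.29% of all genes, and 3 by edgeR, against 8.56%), 2 of 9 of complex III, 5 of 13 of complex IV and 4 of 18 of complex V. By edgeR 0 of the 44 were called, as were 0 of all genes. Once trends with exon length and GC content were removed, 0 of the 44 were called, at a median of 0.06. The shares of all genes were then 0.422% called higher and 0.855% lower. Whether complex I differed from these complexes was not tested.

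The difference was related to transcript length. Among the 46 Nduf genes the log2 fold change fell with exon length (Spearman's rho -0.52 across genes), and the same held for all 9479 genes (rho -0.54), which share the libraries and are not independent replicates. The 8 Nduf genes of up to 500 bp had a median of 0.25, against 0.16 for all genes of that length. The 21 of 500 to 1000 bp had 0.15 against 0.14, the 12 of 1000 to 2000 bp had 0.13 against 0.09, and the 5 of 2000 to 4000 bp had 0.07 against 0.00. All 6 called Nduf genes lay between 449 and 745 bp. The 233 genes of all kinds in that range had a median of 0.15, and 12% of them were called higher, with 27.5% higher at an adjusted p of at most 0.05. The 20 Nduf genes among them had a median of 0.20, against 0.15 for the other 213. Of the 20, 6 were called and 12 passed the adjusted p, against 22 and 52 of the other 213. The range was set by the called Nduf genes, so it holds all 6 by construction, and their share among the 20 is no test. With trends removed the medians in that range were 0.05 for the 20 and 0.00 for the other 213.

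**Figure D4:**
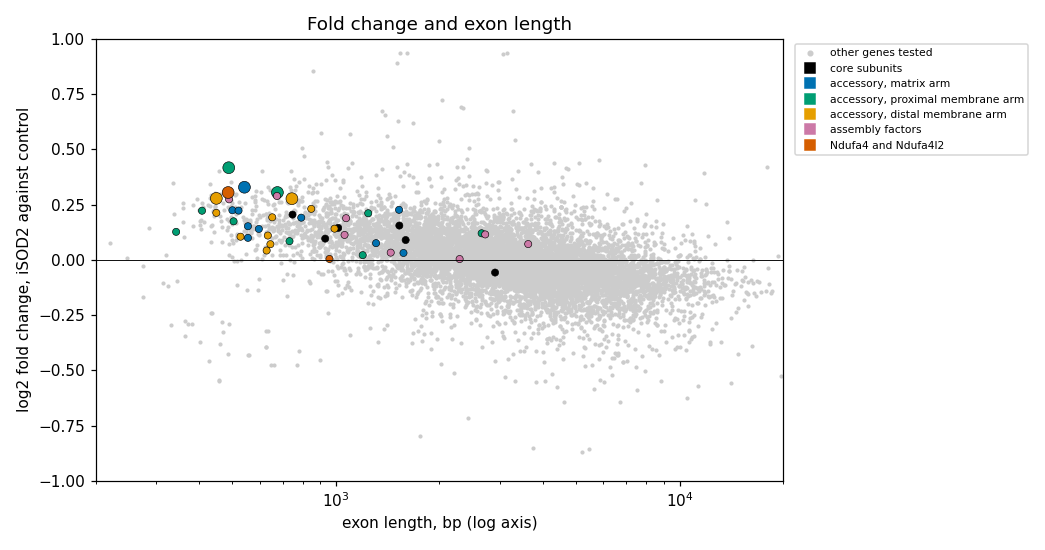
The DESeq2 log2 fold change of iSOD2 against control is plotted against exon length (log axis) for 45 Nduf genes, coloured by role with large symbols for the 6 called genes, over 9384 other genes in grey (50 lie outside the axes). Both the grey cloud and the Nduf genes slope down from left to right, and the Nduf genes sit on the short side, at a median of 746.5 bp over all 46.

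The slope of expression on exon length also separated the hearts themselves. In log2 units per doubling of exon length it was 0.032, 0.053, 0.044, 0.006 and 0.031 in controls 1, 2, 3, 4 and 6, and -0.039, -0.018, -0.038, -0.020 and -0.051 in iSOD2 5, 7, 8, 9 and 10. Every control was positive and every iSOD2 heart negative. After trends with exon length and GC content were removed in each library, 0 Nduf genes were called, against 0.422% of all genes called higher and 0.855% lower. At an unadjusted DESeq2 p under 0.05, 11 of 46 were then higher, against 4.77% of 17720 genes, and 1 was lower, against 4.22%. Among only the 9479 genes with an adjusted p the shares were larger, with 583 higher and 586 lower. The median log2 fold change of the 46 genes was then 0.05, and 29 were positive (28 of the 45 with an adjusted p, against 51.6% of all genes). Of the 6 called genes, Ndufa1 kept the largest difference at 0.26 (SE 0.09, adjusted p 0.110), followed by Ndufa5 at 0.17, Ndufc2 at 0.16, Ndufa4 at 0.13 (adjusted p 0.0520), Ndufb3 at 0.13 and Ndufb2 at 0.12. What made the slope differ was not tested.

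The calls also depended on the test and on single hearts. With the quasi-likelihood test of edgeR 0 Nduf genes and 0 of all genes were called, the 6 genes having adjusted p of 0.0664 to 0.0826, and 30 of 46 Nduf genes were higher at an unadjusted p under 0.05, against 8.56% of all genes. Without control 3, the heart with the shallowest library, 4 genes were called, and without control 4 there were 9.

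Litter was compared with genotype in the model, to ask how much Nduf levels varied between families. 0 Nduf genes were called by DESeq2, against 3.5% of all genes, and 0 by edgeR. At an unadjusted p under 0.05 there were 8 of 46, against 13%. Log2 differences of litter B against litter A ran from -0.19 to 0.17, with a median of -0.02, and 27 of 46 were lower in litter B. At an adjusted p of at most 0.05 without a fold threshold, Ndufv1 and Ndufb7 were lower in litter B, against 1.44% of all genes, and 0 were higher, against 2.87%. Ndufv1 had 13970 and 13240 in the litter A controls, 14880 and 13910 in the litter A iSOD2 hearts, 11380, 12260 and 11930 in the litter B controls and 13430, 12410 and 12180 in the litter B iSOD2 hearts. Only iSOD2 5 of litter B reached into the litter A range, and the log2 difference was -0.19 (DESeq2 adjusted p 0.00281). For Ndufb7 the difference was -0.14 (adjusted p 0.0336). Of the core subunits 6 of 7 were lower in litter B, and of the assembly factors 3 of 8.

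Sex, compared with genotype in the model, gave 0 called Nduf genes by DESeq2, against 0.483% of all genes, and 0 by edgeR, with 1 of 46, Ndufv3 (-0.13), at an unadjusted p under 0.05, against 6.6%. The X-linked Ndufa1 had the largest female against male log2 difference of the family, 0.16.

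Within litters the genotype difference was in the same direction for most genes. In litter A, with 2 control and 2 iSOD2 mice, 39 of 46 Nduf genes were higher in iSOD2 hearts, against 50.3% of all genes, and in litter B, with 3 and 3, 44 of 46 were, against 49.7%. The medians were 0.12 and 0.17. DESeq2 called Ndufa1 (0.56, SE 0.14, adjusted p 0.0182) and Ndufb11 (0.33, SE 0.08, adjusted p 0.0224) higher in litter A, 2 of 46 against 0.294% of all genes, and 0 lower, against 0.162%. Ndufb11 had 4005 and 4086 normalised counts in the litter A controls and 4803 and 5332 in the litter A iSOD2 hearts, and Ndufa1 averaged 1426 and 2109. Both genes are the X-linked members of the family, both litter A controls were male, and 1 of the litter A iSOD2 mice was female, so sex and genotype are partly confounded there. With sex as a covariate neither was called.

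In litter B the calls were Ndufb2 (0.32, SE 0.08, adjusted p 0.0180), Ndufc2 (0.32, SE 0.09, adjusted p 0.0458), Ndufa4 (0.30, SE 0.08, adjusted p 0.0180) and Ndufc1 (0.29, SE 0.07, adjusted p 0.0196), 4 of 40 against 0.34%, and 0 were called lower, against 0.509%. Ndufc1 had 1722, 1780 and 1597 in the litter B controls and 2110, 2120 and 1987 in the litter B iSOD2 hearts. In litter A its means were 1673 and 1815, a narrower gap. For the genotype-by-litter interaction 0 Nduf genes were called by DESeq2, against 0.00564% of all genes, 0 by edgeR, and 0 had an unadjusted p under 0.05, against 1.79%. The widest gap was that of Ndufa4l2, at 0.27 in litter A and -0.16 in litter B (unadjusted p 0.0572). Ndufs1 was at -0.13 and 0.00. With at most 3 mice of a genotype in a litter, the standard errors of the differences within a litter were 0.05 to 0.21. Those of the gap between litters were 0.08 to 0.26.

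**Figure D5:**
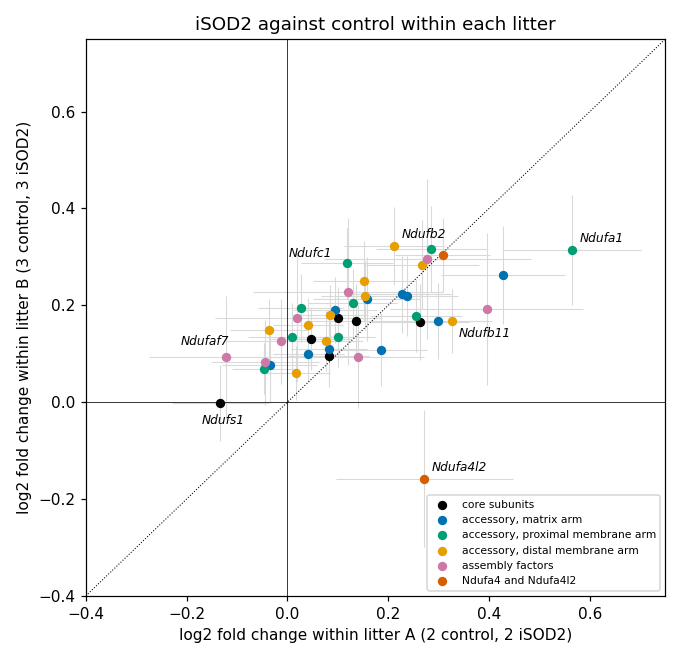
The log2 fold change of iSOD2 against control within litter A (2 mice of each genotype) is plotted against that within litter B (3 of each) for 45 Nduf genes, with bars of 1 standard error, colour for the role and a dotted line of equality. Most genes lie in the upper right, higher in iSOD2 hearts in both litters, with Ndufa1 furthest right at 0.56 and Ndufa4l2 alone at the lower right.

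Promoter sequences are shown for the 6 called genes, to see whether they share letters known from promoters of respiratory genes. RefSeq start sites on the GRCm38.p6 assembly, the same build as mm10, were found for 40 of the 46 genes. The 150 bases before the start site are given 5′ to 3′ on the strand of the gene, in lower case, with capitals for the searched motifs.
Ndufa1 (chrX:37191239-37191388, minus strand): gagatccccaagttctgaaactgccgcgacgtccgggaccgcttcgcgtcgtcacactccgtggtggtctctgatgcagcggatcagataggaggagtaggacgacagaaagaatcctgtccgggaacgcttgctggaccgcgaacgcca
Ndufa5 (chr6:24527691-24527840, minus strand): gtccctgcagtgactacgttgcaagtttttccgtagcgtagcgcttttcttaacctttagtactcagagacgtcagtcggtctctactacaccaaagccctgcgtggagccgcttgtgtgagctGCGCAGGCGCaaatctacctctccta
Ndufc2 (chr7:97399853-97400002, plus strand): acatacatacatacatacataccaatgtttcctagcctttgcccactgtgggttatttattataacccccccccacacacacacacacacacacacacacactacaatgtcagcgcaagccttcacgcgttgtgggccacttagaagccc
Ndufa4 (chr6:11907451-11907600, minus strand): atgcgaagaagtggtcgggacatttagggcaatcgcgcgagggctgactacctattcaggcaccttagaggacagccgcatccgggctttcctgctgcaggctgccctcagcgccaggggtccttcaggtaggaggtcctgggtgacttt
Ndufb2 (chr6:39592415-39592564, plus strand): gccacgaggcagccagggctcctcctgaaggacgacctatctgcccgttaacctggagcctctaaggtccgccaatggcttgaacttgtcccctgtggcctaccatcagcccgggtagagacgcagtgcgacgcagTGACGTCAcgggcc
Ndufb3 (chr1:58586247-58586396, plus strand): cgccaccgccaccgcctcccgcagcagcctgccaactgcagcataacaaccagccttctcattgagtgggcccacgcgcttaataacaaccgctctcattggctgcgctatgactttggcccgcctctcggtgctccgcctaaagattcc

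The motifs were searched on both strands from 250 bases before to 50 bases after the start site. They were the consensus of nuclear respiratory factor NRF1 (the capitals of Ndufa5 are 1 form of it, with a free base in the middle), AAGGTCA for the oestrogen-related receptors, CCGGAAG for ETS-family factors including GABP, AAGATGGCG for YY1 and TGACGTCA for the cyclic AMP response element. Of the 6 called genes, Ndufa5 held the NRF1 letters, as GCGCAGGCGC, and Ndufb2 held the cyclic AMP response element, and further upstream the receptor letters. Ndufa1, Ndufc2, Ndufa4 and Ndufb3 held none of the 5 motifs in the window, so the called genes shared no motif.

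Over the family the NRF1 letters were in 9 of 40 promoters (22.5%), against 4.82% of 27025 promoters. Among the 17601 promoters of genes counted here the share was 6.67%. Those 9 were Ndufa11, Ndufa5, Ndufa6, Ndufa8, Ndufaf4, Ndufaf5, Ndufb4, Ndufs5 and Ndufs6. The YY1 letters were in 6 (15%, against 1.51%), the ETS letters in 6 (15%, against 9.26%), the receptor letters in 3 (7.5%, against 4.6%) and the cyclic AMP response element in 3 (7.5%, against 1.84%). The GC content of the windows had a median of 59.2% in the family and 52.7% over all promoters. These are matches of letters and were not tested as binding sites. Ndufb4 and Ndufs6 are shown as members with NRF1 letters close to the start, Ndufb4 with the receptor letters between a pair of them.
Ndufb4 (chr16:37654369-37654518, minus strand): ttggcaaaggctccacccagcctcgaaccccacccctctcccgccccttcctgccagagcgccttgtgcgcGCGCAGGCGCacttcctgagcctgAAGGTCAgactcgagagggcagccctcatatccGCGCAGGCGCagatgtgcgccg
Ndufs6 (chr13:73328483-73328632, minus strand): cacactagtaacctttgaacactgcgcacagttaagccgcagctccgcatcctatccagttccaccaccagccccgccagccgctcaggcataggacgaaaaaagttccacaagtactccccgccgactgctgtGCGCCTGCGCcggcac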

How the data were processed

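Total RNA was extracted from hearts, and stranded libraries depleted of ribosomal RNA were sequenced. Per the file headers and the study's methods, the authors used Trim Galore, STAR with mm10, and HOMER, which summed reads over the exons of 1 transcript per gene with no strand option recorded. The table the authors deposited holds estimated counts, also named expected counts, summed per gene by HOMER, all multiples of 0.5 and not normalised, and another unit, the deposited exon length in bp. Counts were rounded here to whole numbers. Genes with at least 10 counts over all libraries were fitted in DESeq2 1.42.0 (Wald test, median-of-ratios size factors, independent filtering, unshrunken fold changes, R 4.3.3), with no covariate for genotype, the other factor for litter and sex, and the 4 genotype-by-litter groups for the within-litter and interaction contrasts. Adjusted p are Benjamini-Hochberg values over all genes. The filter and thresholds are those of the study's methods. Normalised counts are counts divided by size factors.

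Alternatives were edgeR 4.0.16 quasi-likelihood, other filters and scalings, covariates, each heart left out, and removal of smooth trends with exon length and GC content (GENCODE transcripts) from each library. The script was tested on simulated data. Depth, taken over genes only, was 16448090.5 to 24263085.5 counts per library, and the library totals in the column headers were larger. No pair of libraries was a copy (lowest of 45 chi-square values per degree of freedom 5.46). Nduf genes, role groups, marker lists, motifs and the rule for named genes (all called genes, core subunits except 1 result that is not reported here and not plotted, assembly factors, Ndufb8, Ndufa4, Ndufa4l2, the extremes of level, the genes nearest the thresholds, and up to 5 other assembly genes) were chosen with earlier results of these data known. Coordinates are mm10, counted from 1. Of the Nduf rows 9 overlap another row, 8 on the opposite strand. 4 of 5 skeletal muscle and 2 of 4 white adipocyte markers passed the count filter, at mean log2 levels of 1.47 to 2.65 and 0.00 to 2.27. Fibroblast, endothelium, macrophage, erythroid and brown adipocyte lists had 0 called markers, at levels of 9.87 to 10.3, 11.8 to 12.0, 9.00 to 9.51, 12.2 to 13.3 and 5.27 to 6.40.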

Additional observations from a re-analysis of the deposited data

Results flagged for a closer look

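In 6 of 92 groups of 5 hearts (46 genes in each genotype), the highest or lowest heart stood apart from the other 4 by Dixon's criterion, where chance alone gives about 1 in 20 groups, 4.6 of 92. All 6 were iSOD2 hearts. iSOD2 5 was high for Ndufc2, with 1960 normalised counts against 1644 to 1730 in the other iSOD2 hearts, and for Ndufb3, with 1530 against 1356 to 1406. iSOD2 8 was high for Ndufb11, with 5330 against 4688 to 4803. It was low for Ndufa6, with 2930 against 3160 to 3240, and for Ndufa8, with 3200 against 3572 to 3720. iSOD2 7 was high for Ndufa10, with 10400 against 9924 to 10020.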

How the results depend on the processing

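The 6 calls were the same 6 genes under TMM and upper-quartile scaling, without a count filter, with a stricter one, without independent filtering and with sex, litter or both as covariates. They numbered 21 without the fold threshold, 0 with edgeR, 0 with length and GC trends removed, and 0 with sex and litter as covariates besides, an alternative chosen after seeing the data. Leaving out each heart gave 4 to 9 calls and medians of 0.13 to 0.16. Without control 3, Ndufb2 and Ndufb3 lost their calls, without control 4 Ndufb11, Ndufb4 and Ndufs4 gained one, and without iSOD2 5 Ndufb3 lost its call. With trends removed the median was 0.0481. For litter, 2 genes passed without the fold threshold. Within litter A (2 calls) there were 0 with edgeR, 0 with sex as covariate, 0 with trends removed, 4 in a fit of that litter alone, and 0 to 3 leaving out each heart (0 without control 1, control 2 or iSOD2 8 and 1 without iSOD2 9 or iSOD2 10, where the lone mouse of an arm is assumed to vary like the other groups). Within litter B (4 calls) there were 0 with edgeR, 0 with trends removed, 0 in that litter alone, and 0 to 9 leaving out each heart (0 without control 3, control 6, iSOD2 5 or iSOD2 9, 2 without control 1, control 2 or iSOD2 10, and 9 without control 4). Why these counts moved was not tested.

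With trends removed, 16 of the 45 positive log2 fold changes turned negative. They were -0.05 for Ndufaf1, -0.0151 for Ndufaf7, -0.0183 for Ndufs3, -0.10 for Ndufa4l2, -0.0361 for Ndufb8 and -0.0741 for Ndufb9, the other 10 running from -0.10 for Ndufb10 to -5e-04 for Ndufa6 (adjusted p 0.0208 before the removal), and with sex and litter besides -0.0426 for Ndufaf1, -0.0941 for Ndufa4l2, -0.0108 for Ndufb8 and -0.0474 for Ndufb9. Ndufa4l2 was at -0.0127 with sex and -5e-04 with sex and litter as covariates. Leaving out each heart took Ndufa4l2 from -0.0785 to 0.1243, and Ndufaf7 from -0.0376 to 0.039. No paired analysis was possible because the genotypes share no replicate number in the labels. Ndufaf2, with the lowest counts of the family, received no adjusted p.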
